A study of Mus musculus with 15 samples.

Results

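Primary chondrocytes treated with LY294002, an inhibitor of phosphatidylinositol 3-kinase (PI3K), were compared directly with chondrocytes treated with Trichostatin A (TSA), an inhibitor of histone deacetylases. The comparison used 6 of the 15 Affymetrix mouse expression arrays of the series, 3 of LY294002 and 3 of TSA, chosen by their labelled treatment. The 3 arrays of the vehicle, DMSO, gave the reference level, so that genes on opposite sides of it could be described. All cells came from cartilage of hind limbs of CD1 mice at embryonic day 15.5 and were grown as monolayers in plastic wells, where chondrocytes are kept outside their native matrix. No allele or transgene is named for any group, and the DMSO cells carried the solvent alone. The study's methods give 10 µM for LY294002, while the dose of TSA is not given in the sources used here. The sample labels give an incubation of 24 h, whereas the design text of the series gives 2 h. The methods describe 3 independent experiments for DMSO and LY294002, and the series' design text describes biological replicates for every treatment, without saying whether animals were pooled.

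PI3K generates a membrane lipid that recruits the kinase Akt, which in turn promotes mTOR complex 1 activity and holds FOXO transcription factors in the cytoplasm. Histone deacetylases remove acetyl groups from histones and other proteins, and their inhibitors raise acetylation and alter the transcription of many genes in either direction. In cartilage, SOX9 with SOX5 and SOX6 drives the genes of the collagen and proteoglycan matrix, and the deacetylase HDAC4 is known as a brake on hypertrophy.

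The level of a gene is given throughout as the deposited log2 signal of a probe set, and a difference of 1 on this scale is a 2-fold change. Of 45037 probe sets, 34545 reached a mean of 5.64, the log2 of a signal of 50, in LY294002 or in TSA and were tested. A call is a limma p value, adjusted by the Benjamini-Hochberg method over these probe sets, under 0.05. Between LY294002 and TSA, 13819 probe sets (40.0%) were called. Of these, 6999 (20.3%) were higher in LY294002 and represented 4165 named genes, and 6820 (19.7%) were lower and represented 4331. At least 2-fold differences were called for 1319 probe sets higher and 1366 lower in LY294002, and at least 8-fold differences for 40 and 44. The arrays of the 2 treatments did not overlap in 16164 probe sets (46.8%), 24.6% with LY294002 higher and 22.2% with it lower. The correlation between arrays over all probe sets was 0.965 to 0.97 for TSA with LY294002, against 0.993 to 0.997 among LY294002 arrays and 0.995 to 0.996 among TSA arrays. The difference between the 3-prime and 5-prime Gapdh control probe sets, a measure of RNA integrity, was 0.138 to 0.201 in LY294002 and 0.0972 to 0.215 in TSA. Such bulk arrays cannot tell fewer cells of a type from less RNA per cell.

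Among the called probe sets, 4728 (13.7% of those tested, 3021 genes) had their LY294002 mean above and their TSA mean below the DMSO mean. The reverse held for 3065 (8.87%, 2207 genes). Both treatments lay above DMSO in 4002 (11.6%) and below it in 2024 (5.86%). These positions rest on the sign of each mean alone, so a stricter class was formed in which LY294002 and TSA each differed from DMSO past the threshold. It held 476 probe sets (1.38%, 374 genes) with LY294002 above and TSA below, and 141 (0.408%, 109 genes) with LY294002 below and TSA above. At least 1.4-fold differences on each side were seen for 114 genes of the first kind and 35 of the second. On their own, 2359 probe sets were higher (6.83%) and 610 lower (1.77%) in LY294002 than in DMSO, while 8035 (23.3%) were higher and 7103 (20.6%) lower in TSA. Because both differences use the same 3 DMSO arrays, they are given side by side and their association was not tested. Only through the other treatment did 21 and 7 probe sets of the 2 strict classes pass the filter.

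The TSA side was the larger in most probe sets, inside and outside these classes. In the strict class with LY294002 above DMSO, the median difference from DMSO was 0.45 for LY294002 and -0.62 for TSA, and the TSA side was larger in 322 of 476 probe sets (67.6%), close to the 69.3% of all tested probe sets. In the class with LY294002 below, the medians were -0.43 and 0.77, and the TSA side was larger in 111 of 141 (78.7%). Over all tested probe sets, the median size of the difference from DMSO was 0.13 for LY294002 and 0.23 for TSA. The strict counts depended on single arrays: the first fell to 180 without LY294002 array 1, 188 without DMSO array 2 and 210 without DMSO array 3, and the second to 77 without LY294002 array 2, 93 without LY294002 array 3, 79 without DMSO array 2 and 59 without DMSO array 3. In every fit that left out 1 array, 138 of the 476 and 43 of the 141 probe sets remained. With the replicate number as a block, the strict classes held 977 and 319 probe sets. In that fit, 4601 and 1706 probe sets were called higher and lower in LY294002 than in DMSO. The block pairs the DMSO and LY294002 arrays, but it also pairs the TSA arrays with them by number. Same-numbered arrays of DMSO and TSA did not vary together throughout. Calls on each side of DMSO with the block rest in part on that pairing. Of the strict probe sets, 77.1% had LY294002 above DMSO, a share that was 59.6% after quantile normalization and 87.1% after centring each array on its median.

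**Figure D1:**
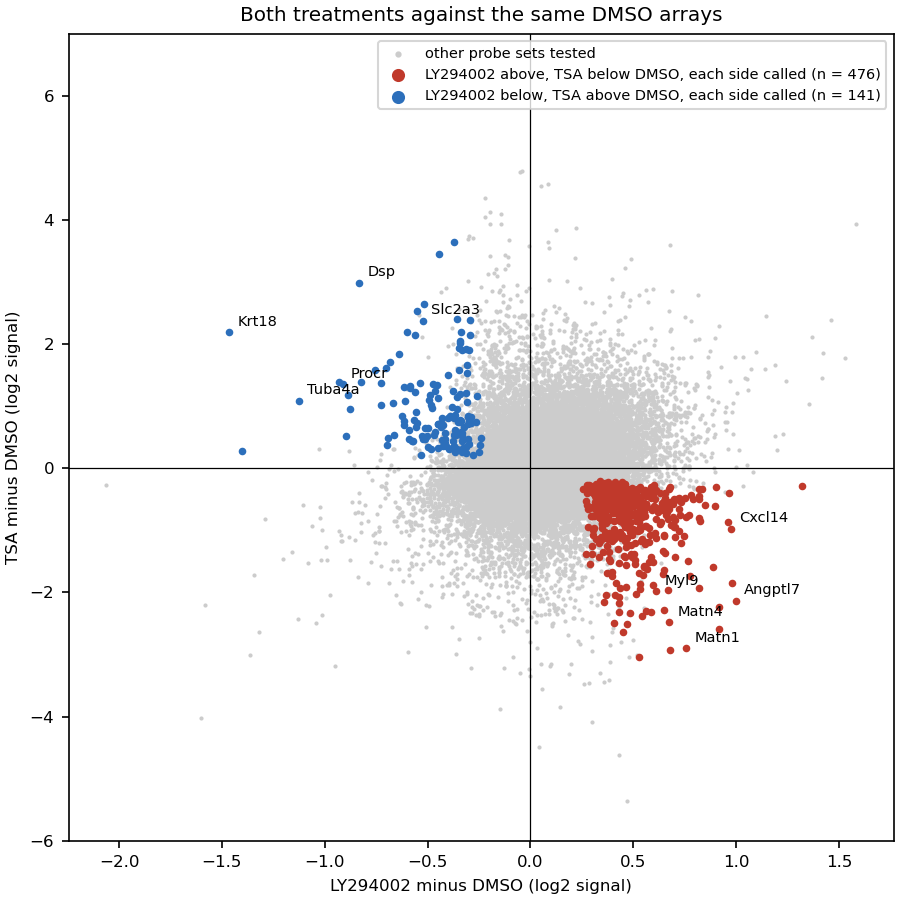
Difference of LY294002 from DMSO (horizontal axis, log2 signal) against that of TSA from DMSO (vertical axis, log2 signal), 1 point for each of 34545 probe sets, with the same 3 DMSO arrays in both. The 476 red points lie to the lower right, with LY294002 above and TSA below DMSO, and the 141 blue points to the upper left, and the vertical spread is wider than the horizontal.

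The genes of the strict classes were ranked by the smaller of their 2 differences from DMSO, and the first 10 of each class are described. In 452 of the 476 and 134 of the 141 strict probe sets, neither treatment overlapped the DMSO arrays. Separation of the groups is thus largely given by the choice of these genes. Angptl7, an angiopoietin-like secreted protein, and Matn1, the cartilage protein matrilin-1, are among those with LY294002 above DMSO. Krt18, a type I keratin of simple epithelia, and Ddit4, an inhibitor of mTOR complex 1 also known as a FOXO target, are among the reverse. Their promoter sequences, windows of 300 bases around the transcription start and mostly upstream of it, from RefSeq's annotation of build GRCm38.p6, are shown because they differ in their number of CG dinucleotides. Capitals mark these dinucleotides, the sites of DNA methylation, and each sequence runs 5′ to 3′ on the strand of the gene. Angptl7 lies on the minus strand at chr4:148500413-148500712, Matn1 on the plus strand at chr4:130944135-130944434, Krt18 on the plus strand at chr15:102027966-102028265 and Ddit4 on the minus strand at chr10:59951721-59952020.
Angptl7: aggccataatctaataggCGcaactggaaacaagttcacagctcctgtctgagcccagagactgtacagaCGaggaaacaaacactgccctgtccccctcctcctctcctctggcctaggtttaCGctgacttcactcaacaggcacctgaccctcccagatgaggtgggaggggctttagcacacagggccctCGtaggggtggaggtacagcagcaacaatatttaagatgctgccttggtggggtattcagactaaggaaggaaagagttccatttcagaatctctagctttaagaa
Matn1: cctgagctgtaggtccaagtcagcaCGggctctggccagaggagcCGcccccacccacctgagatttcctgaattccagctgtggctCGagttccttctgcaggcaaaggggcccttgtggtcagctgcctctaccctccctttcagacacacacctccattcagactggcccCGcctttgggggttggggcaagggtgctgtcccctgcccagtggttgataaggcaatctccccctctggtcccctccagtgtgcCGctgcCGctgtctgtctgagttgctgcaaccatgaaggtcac
Krt18: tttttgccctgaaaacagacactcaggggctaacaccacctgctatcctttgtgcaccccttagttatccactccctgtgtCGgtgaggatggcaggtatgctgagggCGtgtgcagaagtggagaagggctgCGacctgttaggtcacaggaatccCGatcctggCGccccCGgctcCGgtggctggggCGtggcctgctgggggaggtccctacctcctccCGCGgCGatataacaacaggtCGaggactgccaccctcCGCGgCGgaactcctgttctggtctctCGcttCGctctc
Ddit4: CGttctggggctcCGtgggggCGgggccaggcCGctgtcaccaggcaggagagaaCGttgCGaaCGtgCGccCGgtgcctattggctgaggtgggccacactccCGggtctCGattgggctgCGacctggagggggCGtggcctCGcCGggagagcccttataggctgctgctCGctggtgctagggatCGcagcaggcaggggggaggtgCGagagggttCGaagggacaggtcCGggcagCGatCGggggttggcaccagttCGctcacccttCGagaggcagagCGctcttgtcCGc

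These windows held 4 CG dinucleotides for Angptl7, 6 for Matn1, 17 for Krt18 and 26 for Ddit4, while the median was 18 over the 12714 tested genes with a promoter in the table. For the 290 matched genes of the strict class with LY294002 above DMSO the median was 20, and for the 87 of the reverse class 14. The printed windows thus run opposite to these medians and do not represent their classes. The Sp-family motif GGGCGG, searched on both strands, was in 65.2% of the first and 65.5% of the second, against 57.9% of the tested genes and 35.9% of all 27025 promoters. TGANTCA, the letters bound by AP-1, was in 3.1% and 9.2%, against 5.63% of the tested genes and 7.93% of all promoters. TATAAA was in 10.3% and 11.5%, against 8.76% and 14.2%. ACGTG, the core letters of the hypoxia response element, was in 23.1% and 20.7%, against 23.7% and 19.7%. Of the printed windows, GGGCGG was found in Matn1 and Ddit4, and ACGTG in Ddit4. The shares are descriptions of letters in these windows.

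Angptl7 had levels of 11.45, 11.18 and 11.32 in LY294002, 10.25, 10.15 and 10.56 in DMSO and 8.19, 8.34 and 8.04 in TSA. The 3 groups did not overlap. LY294002 was 3.13 (SE 0.11) above TSA, an 8.76-fold difference with a limma adjusted p of 1.6e-12, and the differences from DMSO were 0.998 in LY294002 and -2.13 in TSA.

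Igf1, the growth factor that signals through the IGF1 receptor to PI3K, had levels of 10.80, 10.19 and 10.07 in LY294002, 9.83, 9.29 and 9.18 in DMSO and 7.25, 7.397 and 6.97 in TSA. Array 1 was the highest in both LY294002 and DMSO, yet every LY294002 array was above every DMSO array. The differences from DMSO were 0.92 and -2.23, and the 3 other probe sets tested for the gene were also called higher in LY294002 than in TSA.

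Svep1, a large extracellular protein that binds integrins, had levels of 10.83, 10.92 and 10.90 in LY294002, 9.81, 10.07 and 10.10 in DMSO and 8.32, 8.50 and 8.40 in TSA. Its differences from DMSO were 0.89 and -1.59. Cxcl14, a chemokine, was at 10.36, 9.95 and 10.24 in LY294002, 9.41, 9.01 and 9.20 in DMSO and 8.27, 8.12 and 8.32 in TSA. For this gene the 2 sides were of nearly the same size, 0.97 and -0.97.

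The others of the 10 genes chosen by that ranking were Gnas (0.98 and -1.84), Fibin (0.82 and -0.84), Prelp (0.82 and -1.93), Smim27 (0.82 and -0.79), Comp (0.77 and -1.73) and Matn1 (0.76 and -2.90), where the first value is LY294002 minus DMSO and the second TSA minus DMSO. Gnas encodes the stimulatory G protein subunit from a locus with several imprinted transcripts, and its probe sets differed in size and in calls. LY294002 was 2.82 above TSA in the ranked one and 0.59 in the one with the highest signal. In the latter, the difference of LY294002 from DMSO was 0.26 and did not pass (limma adjusted p of 0.088, or 0.047 with the replicate block). Of the 3 other probe sets, 2 were called higher in LY294002 than in TSA. The difference of Comp from DMSO in LY294002 had a limma adjusted p of 0.019, and this call was lost under 3 alternatives, with adjusted p values of 0.0594 without LY294002 array 1, 0.0927 without DMSO array 2 and 0.0656 after quantile normalization.

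Krt18 had levels of 7.38, 7.35 and 7.30 in LY294002, 8.98, 8.67 and 8.77 in DMSO and 11.17, 10.90 and 10.93 in TSA. The arrays of each treatment lay more than 1 unit from those of DMSO. LY294002 was lower than TSA by 12.6-fold, with a log2 difference of -3.66 (SE 0.10) and a limma adjusted p of 1.2e-13. The differences from DMSO were -1.47 and 2.19.

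Tuba4a, an alpha-tubulin, was at 8.33, 8.36 and 7.98 in LY294002, 9.60, 9.31 and 9.14 in DMSO and 10.54, 10.38 and 10.41 in TSA. Its sides were alike in size, -1.13 and 1.09. Ddit4 was at 9.12, 8.80 and 8.93 in LY294002, 10.05, 9.78 and 9.81 in DMSO and 11.54, 11.30 and 11.00 in TSA, which gave -0.93 and 1.398. Procr, the receptor of protein C, was at 7.48, 7.44 and 7.22 in LY294002, 8.44, 8.21 and 8.22 in DMSO and 9.54, 9.55 and 9.85 in TSA. In Tuba4a, Ddit4 and Procr the 3 groups did not overlap, as in most probe sets of the strict class they were picked from.

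The remaining genes of this ranking were Col18a1, the basement membrane collagen from which endostatin is cut (-0.89 and 1.18), Bdh1, a mitochondrial ketone body enzyme (-0.88 and 0.95), Dsp, the desmosomal plaque protein desmoplakin (-0.83 and 2.99), Serpinb1a, an intracellular protease inhibitor (-0.82 and 1.39), Slc16a3, a lactate exporter (-0.75 and 1.59), and Itga6, a laminin-binding integrin subunit (-0.73 and 1.38). For Dsp the LY294002 mean was below the filter, at 5.13 to 5.56. The LY294002 call of Bdh1 against DMSO was lost without LY294002 array 1 (limma adjusted p of 0.119), LY294002 array 2 (0.0794) or DMSO array 3 (0.134).

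**Figure D2:**
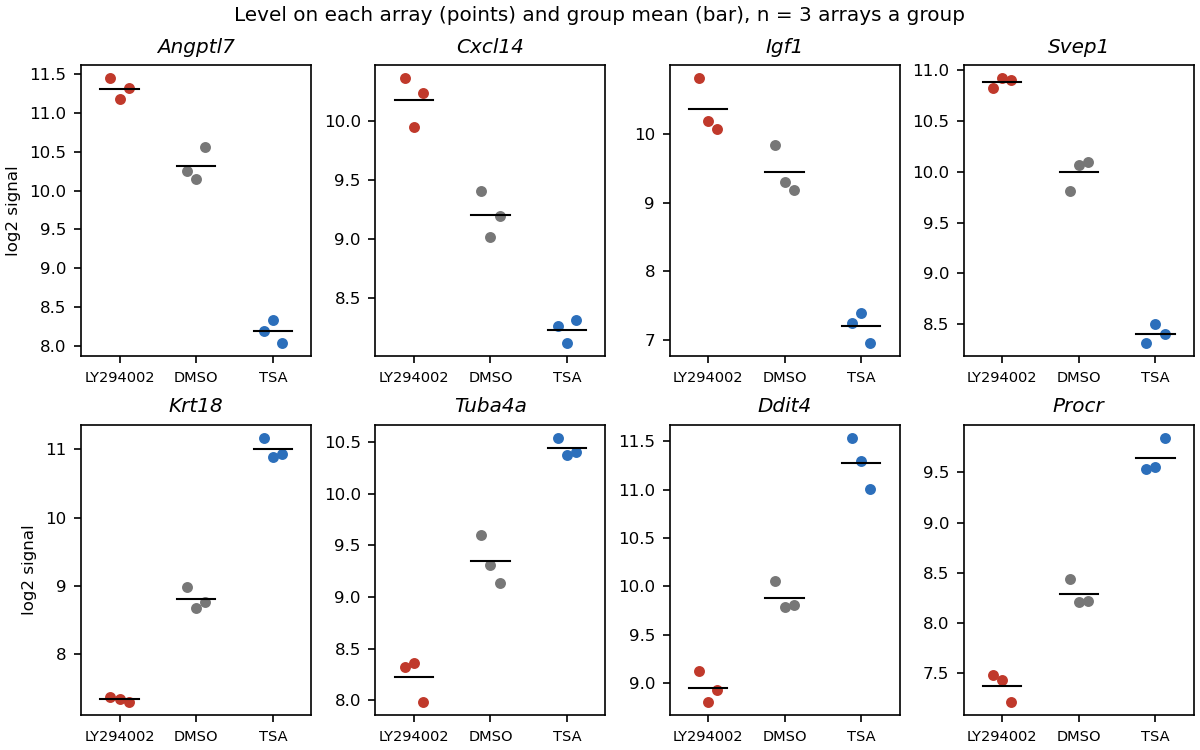
Level on each array (points, log2 signal, a separate vertical scale per gene) in LY294002, DMSO and TSA, with the group mean as a bar, n = 3 arrays a group. In the upper row the LY294002 arrays lie above and the TSA arrays below all DMSO arrays, and in the lower row the order is reversed. The genes were picked from the strict classes, in which most probe sets are separated in this way.

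**Figure D3:**
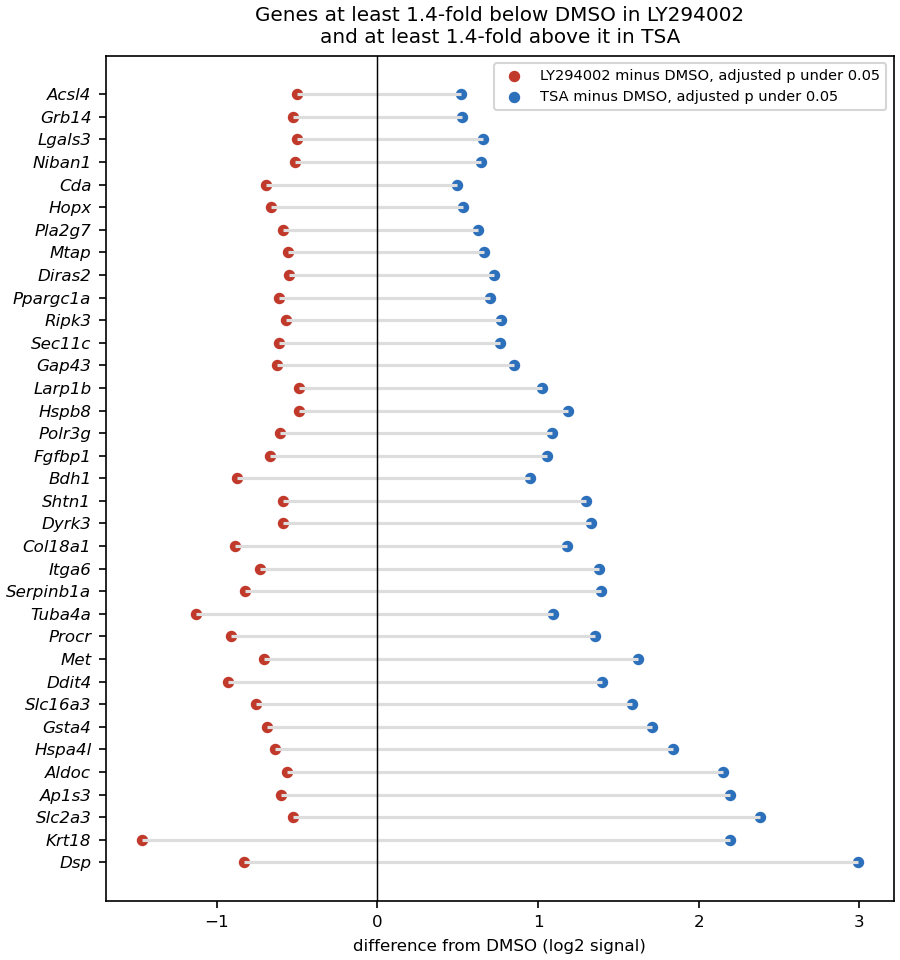
The 35 genes that were at least 1.4-fold below DMSO in LY294002 (red) and at least 1.4-fold above it in TSA (blue), with the difference from DMSO in log2 signal on the horizontal axis and 1 gene per line. All points are past an adjusted p of 0.05, Krt18 reaches furthest to the left (-1.47) and Dsp furthest to the right (2.99).

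The genes of the cartilage matrix and the SOX factors stood above TSA in LY294002 without exception. All 28 tested members were called, against a background of 20.3% of probe sets, and their median difference was 2.43 against 0.01 over all probe sets. LY294002 lay above and TSA below DMSO in 27 of them, against 13.7% of all probe sets. Matn2 was the exception, with both below. TSA was called lower than DMSO for all 28, against 20.6% of all probe sets. LY294002 was called higher for 12, or for 18 with the replicate block, against 2359 and 4601 of the 34545 probe sets tested. Each side was called for 12, against 1.38% of all probe sets. These were Matn1, Prelp, Matn4, Epyc, Col27a1, Comp, Susd5, Wwp2, Fgfr3, Chad, Col9a2 and Sox6.

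Matn1 had levels of 12.33, 12.21 and 12.26 in LY294002, 11.59, 11.39 and 11.53 in DMSO and 8.51, 8.27 and 9.05 in TSA. Every LY294002 array was above and every TSA array below the DMSO arrays, and LY294002 exceeded TSA by 12.6-fold with a limma adjusted p of 6.9e-12. Ucma, a secreted protein of the upper growth plate, was at 10.82, 10.54 and 10.90 in LY294002, 10.68, 10.48 and 10.66 in DMSO and 6.61, 6.62 and 7.07 in TSA. Here LY294002 overlapped DMSO, with a difference of 0.14 that did not pass, and the 15.8-fold gap to TSA lay on the TSA side.

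Cytl1, a secreted cytokine-like protein of chondrocytes, differed from DMSO by 0.52 in LY294002 and -3.00 in TSA, and Acan, the main cartilage proteoglycan, by 0.46 and -2.10. Neither LY294002 difference passed the threshold as such (limma adjusted p of 0.057 and 0.053), and both passed with the replicate block (0.0031 and 0.002). Sox9, the transcription factor of the lineage, was at 11.08, 10.94 and 10.99 in LY294002, 10.71, 10.56 and 10.83 in DMSO and 9.48, 9.24 and 9.96 in TSA, a difference from TSA of 1.45 (SE 0.15). Col2a1, the main cartilage collagen, was at 14.42, 14.44 and 14.43 in LY294002 and 13.92, 13.96 and 14.18 in TSA, at the upper end of a scale whose highest value was 14.44, and its difference was the smallest of the list, 0.41.

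**Figure D4:**
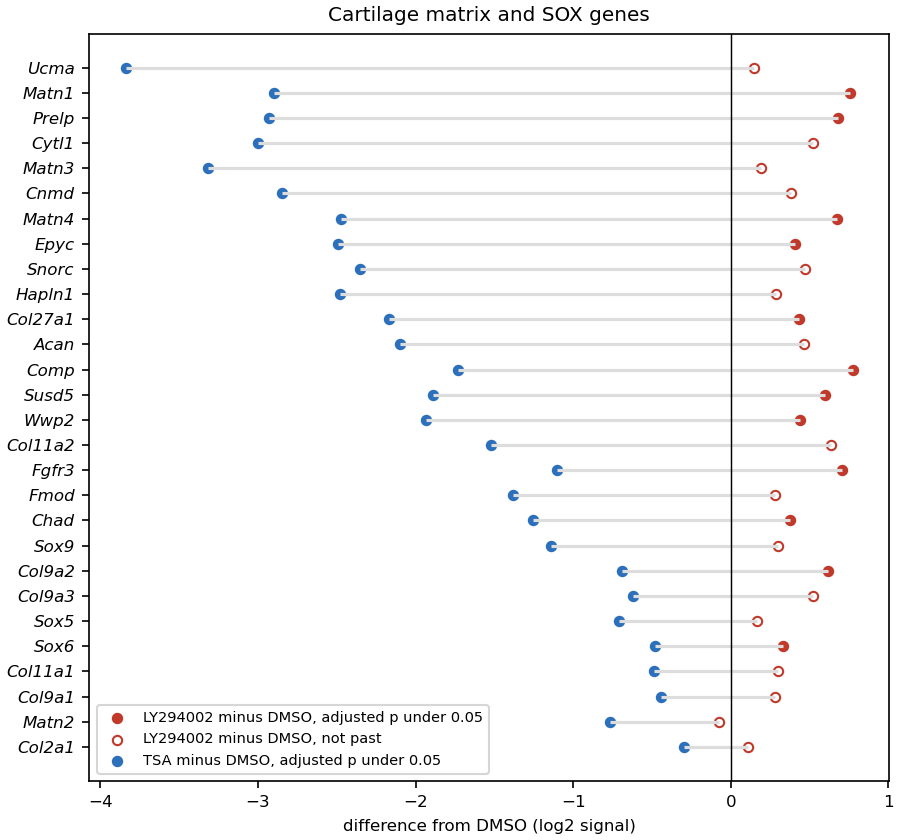
Difference from DMSO in log2 signal for the 28 cartilage matrix and SOX genes, LY294002 in red and TSA in blue, 1 gene per line, with filled points past an adjusted p of 0.05. All TSA points lie to the left of 0 and all LY294002 points but that of Matn2 to its right.

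The summed signal of 8 chondrocyte markers, which overlap with that list, was 72360 to 72860 in LY294002, 55320 to 60220 in DMSO and 27490 to 35760 in TSA, and all 8 were above the filter in every group. These cells therefore carried the defining transcripts of chondrocytes in all 3 groups. The summed signal of 29 skeletal muscle markers was 4531 to 8203 in LY294002, 4984 to 10280 in DMSO and 2842 to 3084 in TSA, with 5 to 6 of them below the filter. The part of such cells in the results was not tested.

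Among genes higher in LY294002, Aspn and C1qtnf3 had the largest differences. Aspn, the small leucine-rich protein asporin, was at 10.82, 10.86 and 10.23 in LY294002, 10.53, 10.19 and 9.78 in DMSO and 4.79, 4.66 and 4.95 in TSA. The TSA arrays were all below the filter, and the fitted difference was 5.84, or 57.2-fold. C1qtnf3, a secreted C1q and TNF related protein, was 4.54 higher than in TSA and 0.04 from DMSO. The others of the 12 largest were Kctd4 (4.39), Ucma (3.98), Hapln1 (3.80), Il17d (3.79), Igfbp5 (3.72), Matn1 (3.66), Srpx (3.63), Omd (3.62), Prelp (3.61) and Ogn (3.57), of which Kctd4 and Il17d also had a TSA mean below the filter. Of these 12, Matn1, Prelp and Ogn were called on each side of DMSO, joined by Aspn and Srpx with the replicate block, and Igfbp5 was below DMSO in both treatments. The probe sets of Igfbp5 disagreed in size: the one with the highest signal differed by 0.09 and was not called.

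Of 19 collagens of fibrous tissue and basement membrane, 14 were higher and 3 lower in LY294002, against 20.3% and 19.7% of all tested probe sets. Col3a1 (1.31) and Col12a1 (1.23) were the highest of them, and Col5a3 (-1.92) and Col18a1 (-1.75) the lowest. Among 23 extracellular proteases and inhibitors, 11 were higher and 4, a share near that background, lower. Mmp13, the collagenase of hypertrophic cartilage, was at 13.05, 12.996 and 12.91 in LY294002 and 9.52, 9.38 and 11.15 in TSA, where array 3 was well above the other two. Its difference was 2.97 (SE 0.30). Mmp14, a membrane-bound collagenase, was 2.42 higher, while Plat, tissue plasminogen activator, was 2.41 lower, a difference of -2.41.

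Adamts5, the aggrecanase that the study follows up, was called on each side of DMSO, with levels of 10.68, 10.38 and 10.28 in LY294002, 9.97, 9.43 and 9.70 in DMSO and 8.36, 8.71 and 8.77 in TSA. LY294002 exceeded TSA by 1.83 (SE 0.15), with a limma adjusted p of 4.3e-08, and the 2 other probe sets tested were called in the same direction. The other 3 genes that the study follows up did not lie on opposite sides. F13a1, the A subunit of coagulation factor XIII, was below DMSO in both treatments, by differences of -0.60 in LY294002 and -2.95 in TSA, where its mean was below the filter. Phlda2, an imprinted gene with a pleckstrin homology domain, was also below DMSO in both, by -1.02 and -0.80, and LY294002 and TSA did not differ past the threshold (-0.23, SE 0.10, limma adjusted p of 0.096). Nr4a1, an orphan nuclear receptor of the immediate early class, was at 11.11, 11.58 and 9.55 in LY294002 and 11.70, 11.48 and 9.83 in TSA, with array 3 low in each, and the difference of -0.26 had an SE of 0.49. Its mean was above DMSO in both, by 1.53 in LY294002 and 1.78 in TSA. The TSA difference passed (limma adjusted p of 0.0065). That of LY294002 passed only with the replicate block (limma adjusted p of 0.062 without it and 0.0021 with it).

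Growth plate signaling genes were more often higher than lower in LY294002. Of 28 genes of Hedgehog, FGF, IGF and natriuretic peptide signaling, 16 were higher and 2 lower, against 20.3% and 19.7% of all tested probe sets, and 5 were called on each side with LY294002 above DMSO: Igf1, Fgfr3, Npr2, Gli2 and Igfbp4, a class that held 1.38% of all probe sets. Fgfr3, the FGF receptor that restrains chondrocyte proliferation, was at 11.71, 11.74 and 11.62 in LY294002, 11.19, 10.81 and 10.96 in DMSO and 9.76, 9.72 and 10.17 in TSA. Fgf7 was 3.52 higher in LY294002, and its difference of 0.48 from DMSO passed only with the replicate block (limma adjusted p of 0.065 without it and 0.011 with it). Igfbp2, an IGF-binding protein, went the other way, at -2.25, with TSA 2.63 above DMSO.

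Of 42 TGF-beta and BMP genes, 17 were higher and 11 lower in LY294002, against 20.3% and 19.7% of all tested probe sets, so that the lower count was near the background. Among the lower were the ligands Tgfb2 (-1.54), Bmp2 (-1.34) and Inhba (-1.30) and the targets Id1 (-0.83) and Smad7 (-0.85). Called on each side of DMSO, all with LY294002 above it, were 5, against 1.38% of all probe sets. They were the latent TGF-beta binding proteins Ltbp2 (2.74) and Ltbp3 (1.28), the ligand Gdf10 (2.48) and the receptors Tgfbr3 (0.84) and Tgfbr2 (0.69). Of 40 Wnt genes, 14 were higher and 10 lower, the latter also near the background. Fzd9, a Wnt receptor, was at 10.41, 10.24 and 10.13 in LY294002, 9.74, 9.60 and 9.52 in DMSO and 8.08, 7.64 and 8.03 in TSA. With Wnt5a, Fzd5, Frzb and Fzd1 it made up the 5 called on each side with LY294002 above DMSO, again against 1.38%. Of the 3 other probe sets tested for Wnt5a, 2 were called higher in LY294002 than in TSA, and the last had the opposite sign. Axin2, a target of the canonical pathway, was lower in LY294002 (-1.11). The count of 10 lower Wnt genes was 6 without LY294002 array 2, 6 without LY294002 array 3 and 5 without TSA array 3.

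Cytoskeletal genes driven by serum response factor were higher in LY294002 in 13 of 26 and lower in 3, against 20.3% and 19.7% of all tested probe sets. Called on each side of DMSO, as were 1.38% of all probe sets, were 7: Actg2, Myl9, Acta2, Tagln, Flna, Cnn2 and Fhl2. Actg2, a smooth muscle actin, was at 9.95, 9.58 and 9.76 in LY294002, 9.32, 9.04 and 9.25 in DMSO and 6.76, 7.001 and 6.97 in TSA. Myl9, a myosin light chain, was at 11.65, 11.55 and 11.44 in LY294002, 10.95, 10.94 and 10.91 in DMSO and 8.91, 8.98 and 8.996 in TSA. Both genes separated the 3 groups fully, as did most probe sets called on each side. Csrp1 (-0.76), Vcl (-0.58) and Mrtfa (-0.51) were lower in LY294002. The skeletal muscle markers moved beside them: LY294002 exceeded TSA in 13 of 24 tested and was exceeded in none. Without LY294002 array 1, the count of markers higher in LY294002 than in TSA was 8. TSA was below DMSO in 19, against 20.6% of all probe sets. LY294002 differed from DMSO in none, or was below it in 6 with the replicate block, as were 1706 of all 34545 probe sets. Their part in the cytoskeletal result was not tested.

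Cell cycle genes differed between the treatments almost wholly through TSA. Of 37 tested, 34 were higher in LY294002 and none was lower, against 20.3% and 19.7% of all tested probe sets, with a median difference of 1.57. TSA was below DMSO in 35, against 20.6% of all probe sets, whereas LY294002 differed from DMSO in 1, Ccnd3, or in 3 with the replicate block. Tk1, the S-phase thymidine kinase, was at 11.10, 10.82 and 10.99 in LY294002, 11.15, 10.92 and 11.10 in DMSO and 8.13, 8.01 and 7.90 in TSA. LY294002 and DMSO overlapped, and TSA was 7.78-fold lower than LY294002. Cdc6, a replication licensing factor, and Ccna2, cyclin A2, showed differences of 2.61 and 2.49. LY294002 lay above and TSA below DMSO in 18 called members, against 13.7% of all probe sets. None of them was called on each side, although Mki67 and Mcm7 were with the replicate block.

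Neuronal genes had the lowest median of the 47 lists. Of 32 tested, 24 were lower in LY294002 than in TSA and none was higher, against a background of 19.7% of probe sets, and the median difference was -1.17. Scg5, a secretory granule chaperone, was at 4.77, 4.90 and 4.93 in LY294002, 4.85, 4.90 and 4.99 in DMSO and 9.70, 9.74 and 9.63 in TSA. It passed the filter only through TSA, and its difference was -4.82. Uchl1, a neuronal ubiquitin hydrolase, was at 7.45, 7.22 and 7.05 in LY294002, 7.399, 7.08 and 6.99 in DMSO and 11.84, 11.67 and 11.68 in TSA. Neither gene was apart from DMSO in LY294002.

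Gap43, a growth cone protein, was the only neuronal gene called on each side, at -0.62 in LY294002 and 0.85 in TSA. Nnat, an imprinted proteolipid, was above DMSO in both, by 1.58 and 3.94. The 12 most negative differences of all were Cldn9 (-4.83), Scg5 (-4.82), Bex1 (-4.58), Bex4 (-4.50), Uchl1 (-4.49), Qpct (-4.33), Chchd10 (-4.28), Nefm (-4.13), Gtsf1 (-4.08), Nefl (-4.00), Krtap1-5 (-3.90) and Dsp (-3.82). In 7 of them, Cldn9, Scg5, Bex4, Nefm, Gtsf1, Nefl and Dsp, the LY294002 mean was below the filter. Krtap1-5, a hair keratin associated protein, and Dsp were called on each side of DMSO, with Krtap1-5 at -0.44 and 3.46.

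Krt18 and Dsp belong to a list of keratinocyte and epithelial markers, whose summed signal was 3047 to 3311 in LY294002, 3967 to 4262 in DMSO and 7988 to 8630 in TSA. Of 11 tested, 5 were lower in LY294002 than in TSA (Dsp, Krt18, Krt19, Perp and Krt8), against 19.7% of all probe sets. Dsp, Krt18 and Perp were called on each side of DMSO, a class that held 0.408% of all probe sets. The other 6 members were not called between LY294002 and TSA, with differences of -0.25 for Krt14, -0.13 for Krt5, 0.03 for Krt15, 0.17 for Epcam, -0.04 for Trp63 and -0.09 for Sfn. Against DMSO, LY294002 was lower in 4 of the 11, or in 6 with the replicate block. Of all 34545 probe sets, 610 (1.77%) were lower, or 1706 with the block. Krt14 was among the 6 (-0.40, limma adjusted p of 0.196 without the block and 0.0323 with it). The part of epithelial cells in the result was not tested.

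Glycolysis and hypoxia genes were lower in LY294002 in 17 of 27 and higher in 5, against 19.7% and 20.3% of all tested probe sets, with a median difference of -0.53. LY294002 lay below and TSA above DMSO in 12, against 8.87% of all probe sets. Slc2a3, a high-affinity glucose transporter, was at 7.81, 7.56 and 7.33 in LY294002, 8.28, 8.004 and 7.99 in DMSO and 10.49, 10.44 and 10.48 in TSA. Aldoc, aldolase C, was at 7.02, 6.96 and 6.91 in LY294002, 7.65, 7.55 and 7.37 in DMSO and 9.80, 9.61 and 9.64 in TSA. Both were called on each side of DMSO, a class that held 0.408% of all probe sets. So was Car9, a carbonic anhydrase induced by hypoxia (-0.31 and 1.07). The lactate exporter Slc16a3 and Ddit4, described above, are not in that list and had the same order. Not every glycolytic gene followed, since Pfkl, the liver-type phosphofructokinase, was 1.39 higher in LY294002 and Ldha 0.30 higher, while the platelet-type Pfkp was lower (-1.95).

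Interferon response genes were lower in LY294002 in 15 of 22, against 19.7% of all tested probe sets, and higher in 1, Ifit2 (0.74). Usp18, a protease that removes ISG15, was at 5.95, 6.10 and 5.90 in LY294002, 6.20, 6.37 and 6.398 in DMSO and 8.36, 8.31 and 8.37 in TSA. With Ifih1, a sensor of double-stranded RNA (-0.31 and 1.22), and Oas1a (-0.36 and 0.31), it was called on each side of DMSO, against 0.408% of all probe sets. H2-K1 joined them with the replicate block. Rsad2, an antiviral enzyme, had the largest difference (-2.54), and LY294002 was not apart from DMSO in it. Of 26 chemokines, interleukins and receptors, 9 were higher and 5, near the background, lower in LY294002, from Cxcl12 (1.98) to Il33 (-3.78). Cxcl12 and Cxcl14 were called on each side with LY294002 above DMSO, against 1.38% of all probe sets.

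Genes known to rise with deacetylase inhibitors were lower in LY294002 than in TSA in 16 of 20, against 19.7% of all tested probe sets, and higher in 2, Cdkn1c (0.67) and Tgfbr2 (0.69). TSA was above DMSO in 16, against 23.3% of all probe sets. LY294002 was above it in 2, or 4 with the replicate block, against 2359 and 4601 of the 34545 probe sets tested. Stmn2 (-2.59), Mt1 (-2.58), Plat (-2.41) and Mt2 (-2.24) differed most. Of 24 antioxidant genes and metallothioneins, 17 were lower in LY294002 and 3 higher. Mt3, a metallothionein, was at 7.42, 7.37 and 7.44 in LY294002, 7.39, 7.51 and 7.35 in DMSO and 10.73, 10.12 and 10.12 in TSA. Gsta4, a glutathione transferase for lipid aldehydes, was called on each side (-0.68 and 1.71), as Gsr, glutathione reductase, was with the replicate block. Of 21 p53 targets, 12 were lower in LY294002 and none higher, led by Pmaip1, which encodes the cell death protein NOXA (-3.28).

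Of 17 deacetylases and sirtuins, 4 were higher and 5 lower in LY294002, near the 20.3% and 19.7% of all tested probe sets. Sirt7 (-1.49) was lowest and Sirt1 (1.06) highest, and Hdac1 was lower by a difference of -0.49 while Hdac7 was higher by 0.72. Of 26 genes of the PI3K, Akt and mTOR pathway, 7 were higher and 8 lower, also not far from these shares. Pik3r3, a regulatory subunit, was called on each side (-0.69 and 0.37), and with the replicate block Akt1 and Sirt1 were too. Of 27 FOXO targets, 18 were above DMSO in TSA, against 23.3% of all probe sets. In LY294002, 10 were above DMSO, or 13 with the replicate block, against 2359 and 4601 of the 34545 probe sets tested. Directly compared, 10 were lower and 6 higher in LY294002. Txnip, an inhibitor of thioredoxin and glucose uptake, was at 11.21, 11.15 and 11.20 in LY294002, 9.98, 10.001 and 10.15 in DMSO and 12.53, 12.49 and 12.49 in TSA. Both treatments were thus above DMSO for it, whereas Ddit4 was called on opposite sides, as Insr and Tsc22d3 were, with LY294002 above DMSO, under the replicate block.

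Other groups lay mostly on the same side of DMSO in both treatments and differed in size. Cholesterol synthesis and uptake genes were higher in LY294002 than in TSA in 15 of 19, against 20.3% of all tested probe sets. Of the called members, 14 were below DMSO in both, against 5.86% of all probe sets. TSA was below DMSO in 16, against 20.6% of all probe sets. LY294002 was below it in 4, or 9 with the replicate block, against 610 and 1706 of the 34545 probe sets tested. Insig1, the sterol sensor of the endoplasmic reticulum, was at 8.89, 8.58 and 8.08 in LY294002, 9.16, 8.99 and 8.25 in DMSO and 7.02, 6.10 and 6.60 in TSA. Hsd17b7 (-0.97) and Dhcr7 (-0.86) were the 2 members lower in LY294002. Lysosome and autophagy genes were lower in LY294002 in 13 of 25 and higher in 2, against 19.7% and 20.3% of all tested probe sets. Of the called members, 12 were above DMSO in both, against 11.6% of all probe sets. Of 24 immediate early genes, 7 were lower in LY294002, not far above the same 19.7%, and 1 was higher. The latter was Fosl1 (0.28), a call that was lost in 9 of the alternatives, and 16 of the genes did not pass.

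Of the proteasome subunits, by contrast, most called members lay on opposite sides, by the sign of their means alone. They were lower in LY294002 in 14 of 28, or in 9 without LY294002 array 2, and higher in 1, against 19.7% and 20.3% of all tested probe sets. LY294002 was below and TSA above DMSO in 11 of the called members, against 8.87% of all probe sets, while both were above in 3 and below in 1. None was called on each side of DMSO, with or without the replicate block. LY294002 was called apart from DMSO in 0 of the 28, also with the block. TSA was called above DMSO in 11 and below it in 1, against 23.3% and 20.6% of all probe sets.

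**Figure D5:**
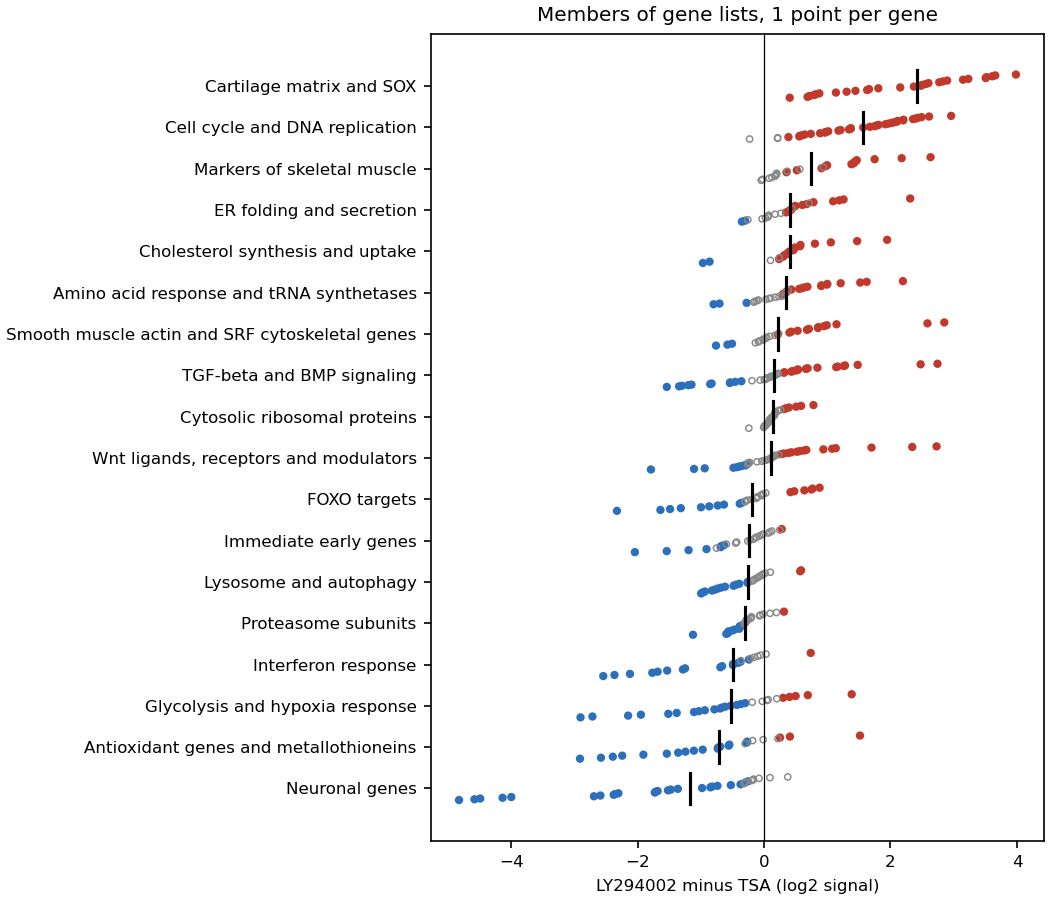
LY294002 minus TSA in log2 signal for each tested member of 18 gene lists, 1 point per gene, red for called and higher in LY294002, blue for called and lower, open grey for not called, with the list's median as a black bar. Medians run from -1.17 for neuronal genes to 2.43 for cartilage matrix and SOX genes.

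Further lists are read against the same 20.3% of probe sets higher and 19.7% lower. Of 34 amino acid response genes and tRNA synthetases, 19 were higher and 3 lower in LY294002, with Atf5 (2.20) highest. Of 26 genes of folding and secretion in the endoplasmic reticulum, 14 were higher and 2 lower, with Herpud1 at 2.31, and 14 of 28 glycosaminoglycan genes were higher and 5 lower, with Slc35d1, the nucleotide sugar transporter of cartilage, at 2.44. Of 19 hypertrophy and mineralization genes, 9 were higher and 1 lower, and Col10a1, the hallmark collagen of hypertrophic cells, was not called (-0.32). Of 30 cytosolic ribosomal proteins, 6 were higher, a share at the background, and none lower, and the count was 2 without LY294002 array 1 and 3 without TSA array 2. Of 19 fibroblast and perichondrium markers, 12 were higher and 2 lower, with summed signals of 93130 to 107100 in LY294002 and 71330 to 78250 in TSA. Of 17 macrophage and leukocyte markers tested, 8 were higher and 2 lower in LY294002, with sums of 3438 to 3987 in LY294002 and 3422 to 3753 in TSA. Of 10 osteoclast markers 1 was higher and 3 lower, although their sum was higher in LY294002 (2737 to 2874 against 2080 to 2154). Of 7 endothelial markers 2 were higher and 2 lower, with sums of 2729 to 2965 and 2346 to 2506, and of 4 erythroid markers none was higher and 1 lower, with sums of 750.3 to 785.1 and 802.1 to 922.8.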

How the data were processed

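Total RNA was hybridized to Affymetrix whole-genome mouse arrays. The table deposited by the authors holds log2 signals that had been normalized between arrays. The methods name GC-RMA and RMA, and which of them produced the table is not settled. Medians of the arrays lay between 6.90 and 7.00. Precision is limited by how many arrays there are. The table has 45101 probe sets, and its 64 array controls were dropped. Annotation gave 1 symbol to 34945 of the rest, several to 932 and none to 9160. A RefSeq table held 34741 of the identifiers and led to 0 changed symbols.

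All 15 arrays, those of U0126 and SB202190 included, entered a single limma fit (limma 3.58.1, R 4.3.3). It had a mean for each treatment and 10 residual degrees of freedom. Empirical Bayes moderated the variances, and two-sided p values were adjusted after Benjamini and Hochberg across every probe set that passed the filter. The code was first tested on simulated data. Each list gene was read from the probe set with its highest mean over all arrays. Over the 47 lists, 1018 of 1101 distinct genes were matched, 13 of them through an older symbol.

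Genes were named if they were among the 12 largest non-overlapping differences in either direction, the 10 of each strict class ranked by their smaller side, up to 4 called members of a list, or the 4 genes followed up by the study. Further list members, such as Col2a1 and Sox9, were named after their values were seen. Members and lists were chosen with earlier results of these data known, so counts over lists are descriptions.

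Same-numbered arrays deviated together for DMSO and LY294002 (correlations of 0.769, 0.404 and 0.627), but not throughout for DMSO and TSA (0.238, 0.475 and 0.0292) or LY294002 and TSA (0.266, 0.251 and -0.11). The replicate numbers, of independent experiments per the methods, were therefore taken to pair DMSO with LY294002 only. The replicate block nevertheless included the TSA arrays. Calls of TSA against DMSO with the block thus use a pairing that these correlations do not bear out throughout. Alternatives were the replicate block, fits of 9 or 6 arrays, other filters (none, a signal of 100, the mean over all arrays), quantile normalization, median centring, a robust prior with a trend, averaging a gene's probe sets, and dropping every array in turn.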

Additional observations from a re-analysis of the deposited data

How the results depend on the processing

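The counts of probe sets higher and lower in LY294002 than in TSA, and those with means on opposite sides of DMSO, stayed within 1.5 times the values given above in every alternative. Without 1 array they ran from 5895 to 7288 (higher), 5975 to 7079 (lower), 3626 to 5079 (LY294002 above and TSA below DMSO) and 2663 to 3505 (the reverse). The strict classes, 476 and 141 probe sets, moved more. With the replicate block they held 977 and 319. With the 9 arrays of LY294002, TSA and DMSO alone, thus without U0126 and SB202190, they held 236 and 61. The class with LY294002 below DMSO held 310 after quantile normalization and 84 after centring on the median. Without 1 array the strict classes ran from 180 to 658 and from 59 to 134. The causes were not tested. Of 210 named calls between LY294002 and TSA, 5 were lost in some alternative (Rps6, Tek, Tnfrsf11a, Rpl14 and Acp5), none turned direction, and 1739 of 1786 list counts stayed within 1.5 times. Same-numbered arrays of LY294002 and TSA share a number only: with the block, 8209 probe sets were higher and 7944 lower in LY294002. Signals near the filter, and near the top of the scale as for Col2a1, limit the size of a difference that can be read.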
